A study of Mus musculus with 19 samples.

Results

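The microRNA hairpins Mir21a, Mir191 and Mir425 were followed in 19 small RNA libraries from mouse sperm. A library's reads were assigned to a hairpin when they were 20 to 24 nt long and matched its sense strand with at most 1 mismatch, and 3 of the 2198 hairpins matched in this way are described here. The study asked how paternal exposure to dicyclohexyl phthalate (DCHP), a plasticizer, changes the small RNAs of sperm. All libraries came from wild type males that were 8 weeks old when a 4-week course of oral gavage began. Controls received the corn oil vehicle by the same route, although the treatment field of every library names DCHP, so that exposure was taken from the library titles. Small RNA of sperm was sequenced either by traditional RNA-seq (5 control and 5 DCHP libraries) or by PANDORA-seq (4 control and 5 DCHP libraries). PANDORA-seq treats the RNA with AlkB, a demethylase that clears modified bases blocking cDNA synthesis, and with T4 polynucleotide kinase, which repairs ends that adapters cannot join. Sperm were released from the cauda epididymis and then treated with a buffer that lyses somatic cells. Per the study's text, sperm RNA of control and exposed sires went into both methods, but the sources used here do not say whether same-numbered libraries of the 2 methods came from the same mouse, and p-values below measure the spread between libraries.

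MicroRNAs are cut from a hairpin precursor by Drosha and Dicer, and the strand loaded into Argonaute recognises its targets mainly through the seed, bases 2 to 8 from its 5′ end. A shift of the 5′ end therefore changes the seed, whereas added, lost or non-templated bases at the 3′ end leave it unchanged. These length and sequence variants are called isomiRs. miR-21, miR-191 and miR-425 are made in most mammalian tissues. miR-21 is abundant in many dividing, inflamed and fibrotic tissues and represses mRNAs such as Pdcd4. miR-191 and miR-425 are processed from a shared primary transcript.

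The mature sequences of the 3 hairpins are shown with the seed in capitals, because the isomiR ends described here are measured against them (RefSeq, GRCm38.p6, 5′ to 3′).
miR-21a-5p: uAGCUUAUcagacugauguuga
miR-191-5p: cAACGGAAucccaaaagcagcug
miR-425-5p: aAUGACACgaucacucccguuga
miR-425-3p: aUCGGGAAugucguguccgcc
The Mir21a hairpin lies on the minus strand at chr11:86584067-86584158 (GRCm38), within the last exon of Vmp1, in its 3′ UTR. Mir191 (chr9:108568319-108568392) and Mir425 (chr9:108568777-108568861) lie 384 bases apart on the plus strand, within an exon of the long non-coding RNA 4833445I07Rik. The annotated miRNA gene Gm24083 overlaps Mir191 on the opposite strand, whose reads were not counted. The seed of miR-21a-5p is shared with miR-21c and that of miR-425-5p with miR-489-3p in RefSeq, while no other mouse mature miRNA in that table has the seed of miR-191-5p. Nearly every assigned read was unique to its hairpin, since 784 of 1112353 Mir21a reads (0.0705%) also matched Mir21b or Mir3967 and no Mir191 or Mir425 read matched another hairpin.

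The PANDORA-seq libraries held 25432054 to 56506344 reads each and the traditional libraries 21588335 to 52099239. Of the hairpins, 426 had at least 50% of their reads, over all 19 libraries together, at 20 to 24 nt. The summed 20 to 24 nt reads of these 426, each read counted once, are here called the miRNA total. It held 0.0231% to 0.107% of PANDORA-seq reads (5881 to 47114 reads) and 3.96% to 15.6% of traditional reads (959641 to 8149310). Traditional control replicate 2 stood apart with the highest share. Levels are given as miRNA RPM, which is reads-per-million of the miRNA total, unless RPM of all reads is named. The summed level of a list of sperm and male germ cell miRNAs lay between 4163 and 25093 miRNA RPM over all libraries, and 10 of its 12 names were in the reference. The epithelial list (6 miRNAs) summed to 7568 to 63223, the smooth muscle and fibroblast list (6) to 10883 to 90186 and the white blood cell list (4 of 5 names matched) to 66.1 to 341.5. Mir122, the liver-typical miRNA, took from 12638 to 431702 miRNA RPM. In such mixed material, fewer cells of a type and less RNA per cell cannot be told apart.

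Mir21a was the most abundant of the 3 hairpins in every library, followed by Mir191 and then Mir425. In traditional controls Mir21a ranked 12 among the 426 hairpins that hold mostly 20 to 24 nt reads, Mir191 ranked 67 and Mir425 ranked 152. In PANDORA-seq controls the ranks were 19, 73 and 208. One Mir191 read was accompanied by 24.98 ± 5.07 (SD, n = 5) Mir21a reads in traditional controls and by 15.8 ± 6.63 (n = 4) in PANDORA-seq controls. The order was therefore kept by both methods, while the ratios overlapped between methods (17.7 to 32.0 against 7.5 to 21.3).

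Mir21a held 39073, 58875, 26905, 26462 and 26088 miRNA RPM in the traditional control replicates 1 to 5. The traditional DCHP replicates 1 to 5 held 33352, 28102, 38136, 46297 and 38209. The groups overlapped, and the highest value and the 3 lowest of the 10 were all from controls. In PANDORA-seq the control replicates 1 to 4 held 10202, 40642, 10178 and 11259 miRNA RPM, and the DCHP replicates 1 to 5 held 9986, 18008, 23606, 35417 and 32729. The PANDORA-seq controls lay close together except for replicate 2, which was above every DCHP library, and replicate 2 was also the highest of the traditional controls. The edgeR fit gave a log2 fold change for DCHP over control of 0.05 ± 0.33 (SE) in traditional RNA-seq (fold 1.04, 95% interval 0.648 to 1.66, adjusted p = 0.943) and of 0.41 ± 0.53 in PANDORA-seq (fold 1.33, interval 0.644 to 2.73, adjusted p = 0.9997). The traditional estimate turned negative when scaled to total reads (-0.35) or to the miRNA total without Mir122 (-0.24). Neither passed the threshold of an adjusted p under 0.1 and a change over 2-fold. Over all hairpins, 0% of 650 tested were called in traditional RNA-seq (23 at an unadjusted p under 0.05, and 0 by DESeq2 with 39) and 0.258% of 388 in PANDORA-seq. The single hairpin called was Mir141, an epithelial miRNA, named after its value was seen, and the call was lost under most alternatives, DESeq2 among them (0 called, 38 at an unadjusted p under 0.05). Without PANDORA-seq control replicate 2 the Mir21a log2 fold change in PANDORA-seq rose to 1.18, still uncalled.

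The Mir191 levels of traditional controls 1 to 5 were 1595, 1839, 1074, 1034 and 1472 miRNA RPM. Traditional DCHP libraries 1 to 5 held 1358, 1308, 1464, 1862 and 1965. These values overlapped and differed by a log2 fold change of 0.18 ± 0.33 (fold 1.14, interval 0.708 to 1.82, edgeR adjusted p = 0.943), which turned to -0.06 when scaled to total reads. In PANDORA-seq the Mir191 values rested on 8, 23, 18 and 11 reads in controls 1 to 4 and on 11, 19, 22, 37 and 64 reads in DCHP libraries 1 to 5. As levels these were 1360, 1912, 753.9 and 533.9 miRNA RPM in controls and 858.2, 1369, 2045, 2279 and 1358 with DCHP. The groups again overlapped (log2 fold change 0.51 ± 0.58, fold 1.43, interval 0.649 to 3.14, edgeR adjusted p = 0.9997). The interval in PANDORA-seq reaches from a loss to a 3.14-fold rise.

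Mir425 was the rarest of the 3 and the only one of the 3 whose traditional fold estimate exceeded 2. Controls 1 to 5 held 95, 342, 165, 58 and 107 reads, or 66.2, 42.0, 48.2, 43.1 and 92.2 miRNA RPM. DCHP libraries 1 to 5 held 173, 60, 203, 285 and 731 reads, or 90.2, 62.5, 90.5, 104.7 and 248.7 miRNA RPM. DCHP replicate 5 was the highest of the 10 libraries, and without it the remaining DCHP values lay between 62.5 and 104.7 against 42.0 to 92.2 in controls. The log2 fold change was 1.04 ± 0.43 (fold 2.06, interval 1.11 to 3.82) with an unadjusted edgeR p of 0.0243 and an adjusted p of 0.784, so that it was not called. Without DCHP replicate 5 the value was 0.58. In PANDORA-seq Mir425 had 0, 0, 1 and 1 reads in controls 1 to 4 and 2, 0, 1, 0 and 25 reads in DCHP libraries 1 to 5, too few for the test. The 25 reads were again in DCHP replicate 5, at 530.6 miRNA RPM. The libraries without a read allow up to 249 (control 2), 510 (control 1), 216 (DCHP 2) and 185 (DCHP 4) miRNA RPM, taken as 3 reads. DCHP replicate 5 was also the highest library of both methods for the summed epithelial list, with 53424 miRNA RPM by PANDORA-seq against 63223 by the traditional method. DCHP replicate 4 was close to it on that list, at 51186 and 55872, with 0 Mir425 reads by PANDORA-seq and 104.7 miRNA RPM by the traditional method. The other DCHP libraries held 12893 to 24907 and 21647 to 27953 on the list, the control ranges were 12413 to 15958 and 7568 to 26007, and all 6 epithelial markers had reads in each group. The part of epithelial RNA in the Mir425 level was not tested.

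**Figure D1:**
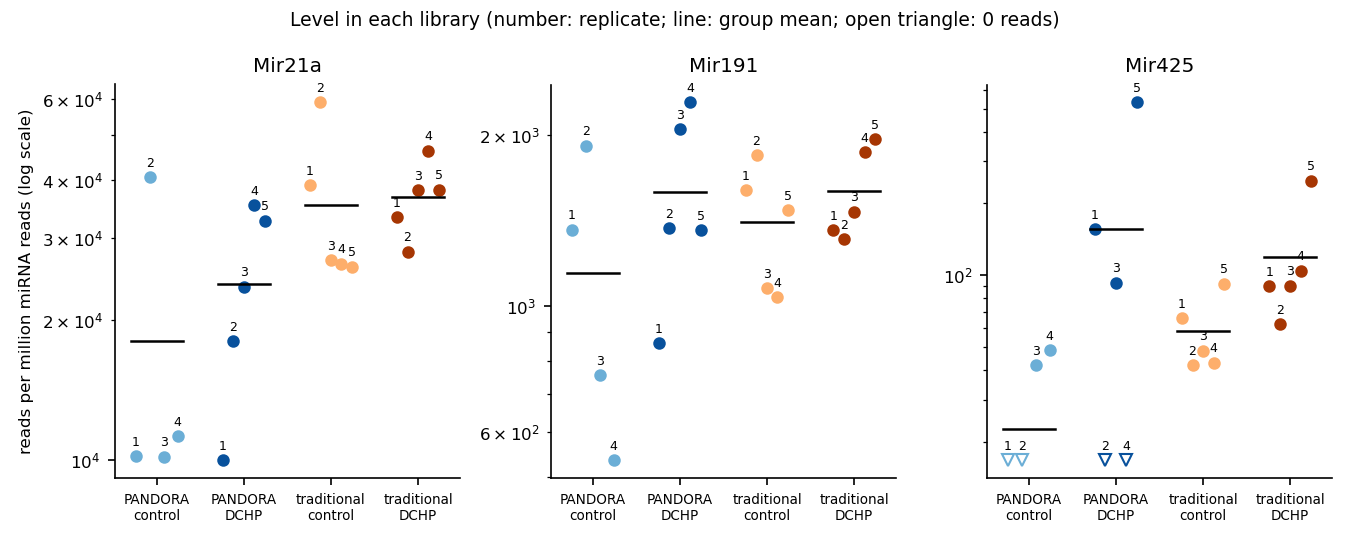
Level in miRNA RPM (reads-per-million of the miRNA total) of Mir21a, Mir191 and Mir425 in each library (log scale), by method and exposure; numbers are replicates, lines are group means and open triangles are libraries with 0 reads. Control replicate 2 is the highest Mir21a control in both methods, and DCHP replicate 5 is the highest Mir425 library in both methods.

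The DCHP effect was then compared between the methods in a single edgeR fit. The effect in PANDORA-seq minus that in traditional RNA-seq was 0.35 ± 0.63 (log2) for Mir21a, 0.33 ± 0.65 for Mir191 and 1.61 ± 1.30 for Mir425, with adjusted p-values of 0.899, 0.916 and 0.764 by edgeR. PANDORA-seq held only 2 control and 28 DCHP reads of Mir425, 25 of these in replicate 5. Those reads were too few for a DCHP test there, and Mir425 entered this fit through its traditional counts. No conclusion is drawn from its difference. None of the 809 hairpins tested passed (0%, 18 at an unadjusted p under 0.05, and 0 by DESeq2 with 38). The Mir21a estimate was 1.13 and the Mir191 estimate 0.74 without PANDORA-seq control replicate 2, and the Mir425 estimate turned to -0.16 without PANDORA-seq DCHP replicate 5. DESeq2 gave 1.52, 1.25 and 2.38 (adjusted p = 0.556, 0.559 and 0.511).

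How the methods compared depended on what the reads were divided by. As RPM of all reads, Mir21a had a median of 6.39 with PANDORA-seq against 1751 with traditional RNA-seq, Mir191 of 0.553 and 72.3, and Mir425 of 0.0177 and 4.22. Scaled to total reads, the PANDORA-seq level of controls was lower by a log2 fold change of -8.62 ± 1.11 for Mir21a, -7.92 ± 0.86 for Mir191 and -7.87 ± 0.70 for Mir425, each called by edgeR (adjusted p = 1.83e-05, 4.85e-06 and 1.13e-06), where 75.2% of 621 hairpins were called, 72% lower. Mir425 had 0, 0, 1 and 1 reads in these PANDORA-seq controls and passed the count filter through the traditional libraries, so its size of change is poorly measured. The whole miRNA total is a smaller part of PANDORA-seq reads, and within that total the hairpins stood much closer. Per miRNA total, the log2 fold change of PANDORA-seq over traditional RNA-seq in controls was -0.97 ± 0.52 for Mir21a (fold 0.509, interval 0.245 to 1.06), -0.34 ± 0.55 for Mir191 (fold 0.792, interval 0.365 to 1.72) and -0.91 ± 1.08 for Mir425 (fold 0.533, interval 0.115 to 2.46). The edgeR adjusted p-values were 0.0946, 0.590 and 0.559. The Mir425 fold again rests on 2 PANDORA-seq control reads, and its log2 value turned to 0.91 with reads of any length. In DCHP libraries it was -0.62 ± 0.39 for Mir21a, -0.01 ± 0.44 for Mir191 and 0.71 ± 0.68 for Mir425 (edgeR adjusted p = 0.174, 0.986 and 0.386). Mir425 in DCHP libraries turned to -1.07 without PANDORA-seq replicate 5.

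None of the 3 hairpins was called in either method comparison, where 73.9% of 686 hairpins were called in controls and 69.1% of 651 in DCHP libraries. Most of those calls were higher in PANDORA-seq (69.4% and 68.5% of the hairpins tested, with 4.52% and 0.614% lower), whereas with total reads as library size 20 were higher and 447 lower of 621 in controls (3.22% and 72%) and 20 and 416 of 575 with DCHP (3.48% and 72.3%, 75.8% called in all). Per miRNA total the median log2 fold change over all tested hairpins was 4.62 and 5.38. Among tested hairpins with mostly 20 to 24 nt reads, the median was -0.17 (238 hairpins) and 0.06 (216 hairpins), and 78 (32.8%) and 27 (12.5%) were called. The 3 members are of this kind over all libraries together, although in PANDORA-seq alone only 30 of 63 Mir425 reads had that length. Mir21a was just short of the 2-fold limit in controls. It passed when the replicate number was a block (log2 fold change -1.27, edgeR adjusted p = 0.0137), when PANDORA-seq control replicate 2 was left out (-1.75, edgeR adjusted p = 0.00540) and when traditional control replicate 3, 4 or 5 was left out (-1.06, -1.06 and -1.07). The control numbers were not taken as pairing (r of same-numbered libraries 0.0078 to 0.82), so the control block is an alternative only. In DCHP libraries the numbers were taken as pairs from correlations in these same data. The blocked value there was -0.73 (edgeR adjusted p = 0.0358), under 2-fold.

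**Figure D2:**
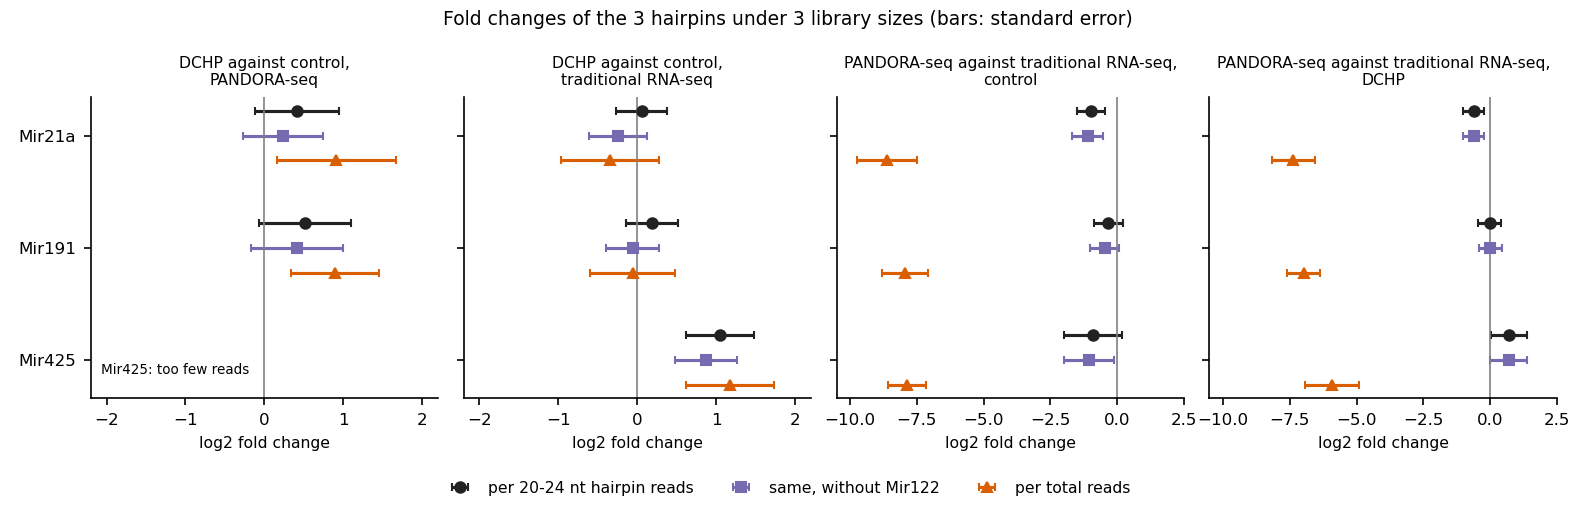
Log2 fold changes of the 3 hairpins in the 4 comparisons with standard errors, for 3 library sizes: the miRNA total, the same without Mir122, and total reads. The Mir425 method difference in controls rests on 2 PANDORA-seq reads, and that with DCHP on 28, of which 25 are in replicate 5. Per miRNA total the DCHP effects lie between 0.05 and 1.04, whereas the method difference moves from between -0.97 and 0.71 per miRNA total to between -8.62 and -5.92 per total reads.

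Other widely expressed miRNAs gave a background for these values. Of a list of 25 such hairpins, chosen without the 3 members, 23 were in the reference. In the DCHP comparisons 7 were tested with PANDORA-seq and 22 with traditional RNA-seq, and edgeR called none. In the method comparison 22 were tested in each exposure group. In controls Mir320 was called higher in PANDORA-seq (log2 fold change 6.56) and Mir140 (-1.72) and Mir16-1 (-1.95) lower, and with DCHP Mir320 (5.31) and Mir361 (1.23) were called higher. That is 3 and 2 of the 22, where 73.9% and 69.1% of all tested hairpins and 32.8% and 12.5% of those with mostly 20 to 24 nt reads were called. These hairpins were named because they passed. The Mir16-1 call rests on 3 reads in all PANDORA-seq controls together, and Mir16-2, with 4 reads there, was not called. The list's median log2 fold change was -0.16 in controls and -0.24 with DCHP. Its 3 highest hairpins in traditional controls were Mir25 (4989 ± 2160 miRNA RPM, SD, n = 5), Mir22 (3095 ± 3850) and Mir151 (2295 ± 822.4), all below Mir21a (35481 ± 14171). DCHP over control log2 fold changes in traditional RNA-seq were 0.21 ± 0.36 for Mir25, -1.42 ± 0.69 for Mir22 and -0.25 ± 0.35 for Mir151, none of them called (edgeR adjusted p = 0.943, 0.784 and 0.943).

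The spread of the members within a group was set against that of other miRNAs. In traditional DCHP libraries the coefficient of variation was 18.3% for Mir21a and 18.95% for Mir191, under the lower quartile (21.0%) of the 165 hairpins with at least 100 reads per library on average, whose median was 25.8%. Mir425 varied by 62.0%, above their upper quartile of 37.8%, but by 20.3% without DCHP 5. In traditional controls the values were 39.9% for Mir21a, 24.6% for Mir191 and 36.5% for Mir425, against a median of 40.5% over 174 hairpins. Mir21a varied by 21.3% there without control 2, and Mir425 by 22.5% without control 5. In PANDORA-seq Mir21a varied by 83.3% in controls, against a median of 31.3% over 33 hairpins, and by 43.7% with DCHP, against 38.5% over 41. The control value rested on control 2, without which it was 5.85% over 3 libraries.

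Mir21a and Mir191 moved together across libraries. Over the 10 traditional libraries their log2 levels had a Pearson r of 0.792 (permutation p = 0.00644, adjusted over 9 relations 0.0193) and a Spearman rho of 0.733 (permutation p = 0.0203, adjusted 0.0914). Without the 2 libraries farthest from the median of Mir21a the r was 0.902. Over the 9 PANDORA-seq libraries r was 0.778 (exact permutation p = 0.0163, adjusted 0.0293) and rho 0.7 (exact p = 0.0432, adjusted 0.0964), with r = 0.651 without the 2 farthest. Mir191 and Mir425, which share a primary transcript, had r = 0.593 in traditional RNA-seq (permutation p = 0.0677, adjusted 0.0762, rho 0.588, p = 0.0817, adjusted 0.0964), and r = 0.352 without the 2 farthest, so that on this scale the relation rested on those libraries. As RPM of all reads it had r = 0.789 (permutation p = 0.00668, adjusted 0.0100, rho 0.903, p = 0.00078, adjusted 0.00156), and r = 0.923 without the 2 farthest. On that scale r was also 0.970 (rho 0.964) for Mir21a and Mir191 and 0.656 (rho 0.855) for Mir21a and Mir425. The higher r was thus not particular to the pair with a shared transcript. As miRNA RPM, Mir21a and Mir425 gave r = 0.109 (permutation p = 0.762, rho 0.0909, p = 0.812), and r = 0.658 without the 2 farthest. Mir425 was not set against the other members in PANDORA-seq, where 4 of 9 libraries had no Mir425 read.

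One Mir425 read was accompanied by 24.1, 43.8, 22.3, 23.98 and 16.0 Mir191 reads in traditional controls 1 to 5. With DCHP the ratio was 15.1, 20.9, 16.2, 17.8 and 7.9. The ratio of 2 hairpins from a shared transcript thus ranged from 7.9 to 43.8 between traditional libraries, and its highest and lowest values there were control replicate 2 and DCHP replicate 5. In the 5 PANDORA-seq libraries with a Mir425 read it was 18, 11, 5.5, 22 and 2.56, lowest again in DCHP replicate 5.

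Levels also agreed between the methods for libraries with the same replicate number. Over 9 same-numbered pairs the log2 level of Mir21a had r = 0.744 (exact permutation p = 0.0231, adjusted 0.0346) and rho = 0.667 (exact p = 0.0589, adjusted 0.0964). Mir191 had r = 0.809 (exact permutation p = 0.00933, adjusted 0.0210) and rho = 0.617 (exact p = 0.0857, adjusted 0.0964). Without the 2 pairs farthest from the median in traditional RNA-seq r was 0.587 and 0.487. The r of deviations from the exposure group means was 0.784 and 0.778. DCHP libraries were taken as pairs because their miRNA levels correlated in these same data, so this agreement is partly built in. Control numbers were not taken as pairing.

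The miRNAs whose levels were most like each member's over the 10 traditional libraries were found among 172 other hairpins with enough reads. For Mir21a these were Mir26a-1 (r = 0.942), Mir26a-2 (0.941), which yields the same mature miRNA, and Mir199b (0.939), a miRNA typical of fibroblasts. Over the 9 PANDORA-seq libraries their r with Mir21a was 0.795, 0.793 and 0.602. For Mir191 the nearest were Mir411 (0.928), Mir181a-1 (0.917) and Mir19a (0.877), which had 4, 12 and 2 reads in all PANDORA-seq libraries together. For Mir425 they were Mir222 (0.905), Mir429 (0.891), a member of the epithelial miR-200 family, and Mir7-2 (0.866). In PANDORA-seq the r was -0.12, 0.27 and 0.36 for the 3 neighbours of Mir191 and 0.43, 0.41 and 0.49 for those of Mir425, which had no read in 4 of the 9 libraries. The median r over the candidates was -0.03 for Mir21a, 0.23 for Mir191 and 0.31 for Mir425. These correlations are a description, and the points share the miRNA total as their divisor.

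Mir21a and Mir191 reads came almost wholly from the 5p arm. Mir21a had 136 3p reads of 1108580 in traditional RNA-seq (0.0123%) and 0 of 3773 in PANDORA-seq, which allows up to 0.0795%. Mir191 had 70 of 42036 (0.167%) and 0 of 213, which allows up to 1.41%. The Mir21a 5p share in DCHP libraries passed the isomiR test between methods (exact permutation p = 0.0476, adjusted 0.0952, with 50% of 120 hairpins called). Leaving out any 1 of the 5 PANDORA-seq DCHP libraries ended that call. Over the 10 omissions of 1 library, those of traditional libraries included, the exact permutation adjusted p ran from 0.0257 to 0.175. Counting reads on their best hairpins only also ended it (adjusted p = 0.109). The replicate block of same-numbered pairs gave an adjusted p of 0.231 (exact sign-flip permutation). That block could not have kept the call, because DCHP replicate 2 held only 5p reads by both methods and so few pairs allow no small enough p. The difference of 0.00378 percentage points lay far under the 0.0795% that 0 PANDORA-seq reads allow, and could not be resolved at this depth.

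Mir425 was the exception. Its 5p share was 93.7%, 64.3%, 94.55%, 82.8% and 90.7% in traditional controls 1 to 5 and 97.1%, 95%, 91.1%, 97.9% and 96.7% with DCHP. The lowest value was control replicate 2, where 122 of 342 reads came from the 3p arm. The mean difference of 10.4 percentage points had an exact permutation p of 0.0397 and an adjusted p of 1 over the 318 hairpins tested, 0% of which were called. Without control 2 the difference was 5.16 percentage points, from a control mean of 90.4% (n = 4).

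The 3p reads of Mir425 mostly began 1 base upstream of the RefSeq miR-425-3p start. This was so for 166 of 213 reads in traditional RNA-seq (77.9%, 95% Wilson interval 71.9% to 83.0%) and for the single 3p read in PANDORA-seq, and 11 of the 11 libraries with 3p reads held such reads. The most frequent 3p read, with its own bases 2 to 8 in capitals, is shown because its seed differs from that of the RefSeq entry above.
miR-425-3p read: cATCGGGAatgtcgtgtccgc
Its seed is AUCGGGA where RefSeq has UCGGGAA. Without traditional control replicate 2, which held 86 reads at this start and 36 at the RefSeq start, the start 1 base upstream was in the majority in 8 of the other 9 traditional libraries, the exception being control replicate 1 with 2 against 4 reads.

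On the 5p arm the starts varied less than the 3′ ends in traditional RNA-seq. The RefSeq start was used by 99.7% of Mir21a, 98.2% of Mir191 and 96.9% of Mir425 main-arm reads in traditional RNA-seq, and by 99.6%, 93.9% (200 of 213 reads, Wilson interval 89.8% to 96.4%) and 100% (29 of 29, interval 88.3% to 100%) in PANDORA-seq. Single PANDORA-seq libraries used the RefSeq start in 63.6% (DCHP 1, 11 reads) to 100% of Mir191 reads, with group means of 89.3% ± 10.4 in controls (n = 4) and 89.8% ± 15.2 with DCHP (n = 5). In traditional RNA-seq the seeds of the 5p miRNAs were thus the RefSeq ones in nearly every read. The 4 most frequent reads of each hairpin differed only at the 3′ end. They are shown with the bases after position 20 in capitals, as read.
Mir21a, 22 nt: tagcttatcagactgatgttGA
Mir21a, 21 nt: tagcttatcagactgatgttG
Mir21a, 23 nt: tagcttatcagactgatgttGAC
Mir21a, 20 nt: tagcttatcagactgatgtt
Mir191, 21 nt: caacggaatcccaaaagcagC
Mir191, 22 nt: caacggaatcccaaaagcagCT
Mir191, 20 nt: caacggaatcccaaaagcag
Mir191, 23 nt: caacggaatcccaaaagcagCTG
Mir425, 24 nt: aatgacacgatcactcccgtTGAG
Mir425, 23 nt: aatgacacgatcactcccgtTGA
Mir425, 22 nt: aatgacacgatcactcccgtTG
Mir425, 21 nt: aatgacacgatcactcccgtT
The leading Mir21a read is the RefSeq miR-21a-5p itself, with 54.4% ± 17.1 of main-arm reads in traditional controls and 63.1% ± 3.55 with DCHP (SD, n = 5 each). The leading Mir191 read is 2 bases shorter than RefSeq miR-191-5p and held 39.1% ± 2.62 and 40.9% ± 2.75, whereas the RefSeq form of 23 nt held 6.91% ± 1.29 and 5.82% ± 1.43. The leading Mir425 read is 1 base longer than RefSeq miR-425-5p and held 35.7% ± 12.8 and 29.9% ± 7.88, against 14.1% ± 6.46 and 14.9% ± 6.30 for the RefSeq form. The leading Mir425 read has 24 nt, the longest length counted.

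In PANDORA-seq the ends of Mir191 and Mir425 rested on few reads and leaned on DCHP replicate 5. Of 213 Mir191 reads 42.7% (Wilson interval 36.3% to 49.4%) ended 2 bases before the RefSeq end, 37.6% ended 1 base before it and 5.16% (2.91% to 9.01%) at it. In traditional RNA-seq 45.8% of 41966 Mir191 reads ended 2 bases before it and 10.55% at it. The end 2 bases before led in 5 of the 9 PANDORA-seq libraries and the end 1 base before in 4. Without DCHP replicate 5 the order turned, with 59 of 149 reads 2 bases before the RefSeq end (39.6%) and 71 of 149 (47.65%) 1 base before it. Of 29 Mir425 reads 37.9% (22.7% to 56.0%) ended 1 base beyond the RefSeq end, compared with 43.2% of 2006 in traditional RNA-seq, but all 11 were in DCHP replicate 5 and the other 5 reads included none. These intervals cover counting error only.

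**Figure D3:**
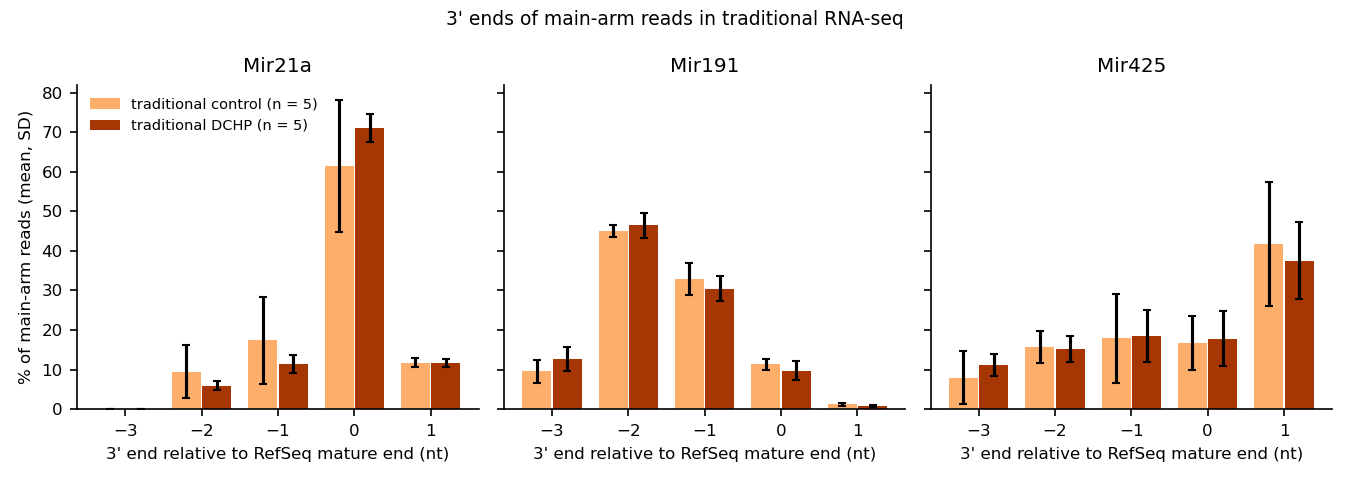
Share of main-arm reads ending at each position relative to the RefSeq mature 3′ end (0) in traditional RNA-seq, as means with SD over 5 libraries per group. Mir21a peaks at the RefSeq end, Mir191 2 bases before it and Mir425 1 base beyond it, in both exposure groups.

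The share of Mir21a reads at the RefSeq 3′ end was followed library by library. Main-arm reads ended at the RefSeq position in 49.1%, 38.3%, 75.5%, 74.4% and 69.6% of cases in traditional controls 1 to 5 and in 73.8%, 69.0%, 66.1%, 71.7% and 74.6% with DCHP. In PANDORA-seq the share was 46.7%, 42.9%, 63.0% and 68.5% in controls 1 to 4 and 74.2%, 63.6%, 53.5%, 69.7% and 74.3% in DCHP libraries 1 to 5. Control replicates 1 and 2 were the lowest in both methods, and more of their reads ended earlier. PANDORA-seq control 1 rested on few reads, with 28 of 60 at the RefSeq position. Its share ending 1 base before was 16.7%, against 16.5% in PANDORA-seq DCHP 3. In traditional controls 1 and 2, 24.7% and 32.9% of reads ended 1 base before the RefSeq end and 14.7% and 18.6% 2 bases before it, against 8.49% to 12.0% and 3.96% to 6% in the other 3 controls. Between control and DCHP the means differed by 9.66 percentage points in traditional RNA-seq (exact permutation p = 0.357, adjusted 0.601) and by 11.8 in PANDORA-seq (exact permutation p = 0.143, adjusted 0.659), and the groups overlapped in both. Without control 2 the differences were 3.88 and 7.70. For this measure 0% of 318 and 0% of 113 hairpins were called. With so few libraries a single hairpin could not be called, since only many hairpins sharing the smallest possible p would pass the adjustment.

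Other miRNAs gave no shift of the median. Over 123 hairpins with at least 100 main-arm reads in every traditional library, the median share at the main 3′ end lay between 61.1% and 63.0% in all 10 libraries. Relative to each hairpin's own median, Mir21a deviated by -21.5 percentage points in control replicate 1 and by -32.4 in control replicate 2, and no other of the 123 hairpins fell farther in either. The same libraries were compared after their values were seen, and no test was made of this rank.

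The Mir21a end share agreed between the methods over the 9 same-numbered pairs, with r = 0.899 (exact permutation p = 0.000683, adjusted 0.00308) and rho = 0.7 (exact p = 0.0432, adjusted 0.0964). It was r = 0.726 without the 2 pairs farthest from the median and r = 0.869 for deviations from the exposure group means. These p-values treat same-numbered libraries as matched. Control numbers were not taken as pairing, and DCHP libraries were taken as pairs from miRNA levels in these same data. DCHP replicate 3 (66.1% with traditional RNA-seq, 53.5% with PANDORA-seq) and control replicate 3 (75.5% and 63.0%) differed most between the methods.

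Fewer Mir21a reads ended at the RefSeq position in traditional libraries with more Mir122. In traditional controls 1 and 2 Mir122 held 240845 and 431702 miRNA RPM, against 19281 to 44751 in the other 3. Among traditional DCHP libraries, replicates 2 and 3 held the most Mir122 (215591 and 127651) and the lowest end shares. Over the 10 traditional libraries the log2 level of Mir122 and the Mir21a end share had r = -0.838 (permutation p = 7e-05, adjusted 0.00063) and rho = -0.903 (permutation p = 0.00068, adjusted 0.00612), and r = -0.862 without the 2 libraries farthest in Mir122. Over the 9 PANDORA-seq libraries r was -0.663 (exact permutation p = 0.0538, adjusted 0.0692) and rho was -0.650 (exact p = 0.0666, adjusted 0.0964). The red blood cell list, of which 2 of 4 names were in the reference, was also highest in traditional controls 1 and 2, at 218.8 and 405.8 miRNA RPM against 45.3 to 70.7 in the other 3 controls. In traditional DCHP libraries 1 to 5 that list held 31.8, 55.2, 158.7, 97.75 and 66.35 miRNA RPM. There replicate 3 was highest, whereas replicate 2, with the most Mir122, was second lowest. In PANDORA-seq controls 1 to 4 the list held 0, 415.6, 83.8 and 48.5 miRNA RPM, with no Mir144 read. These levels rest on 8 Mir451a reads in all, and the 0 of control 1 allows up to 510 miRNA RPM, taken as 3 reads. These relations were computed after the values had been seen, and the part of other cells or RNA in the Mir21a ends was not tested.

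**Figure D4:**
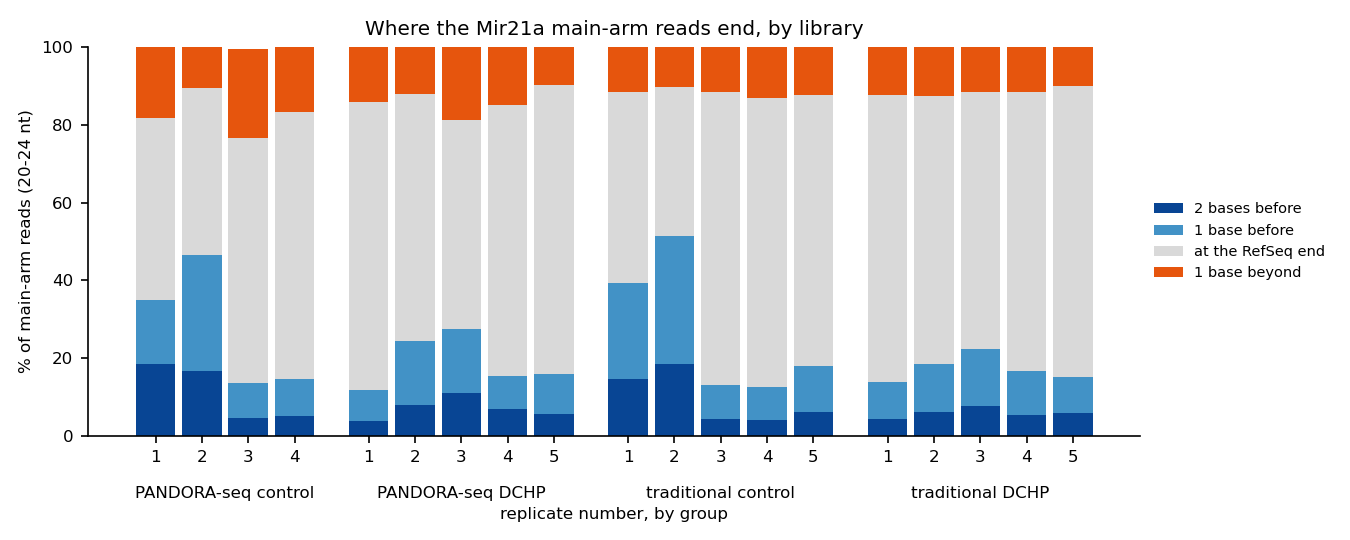
Share of Mir21a main-arm reads ending 2 bases before, 1 base before, at and 1 base beyond the RefSeq 3′ end in each of the 19 libraries. Control replicates 1 and 2 hold the largest shares of earlier ends in both methods.

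**Figure D5:**
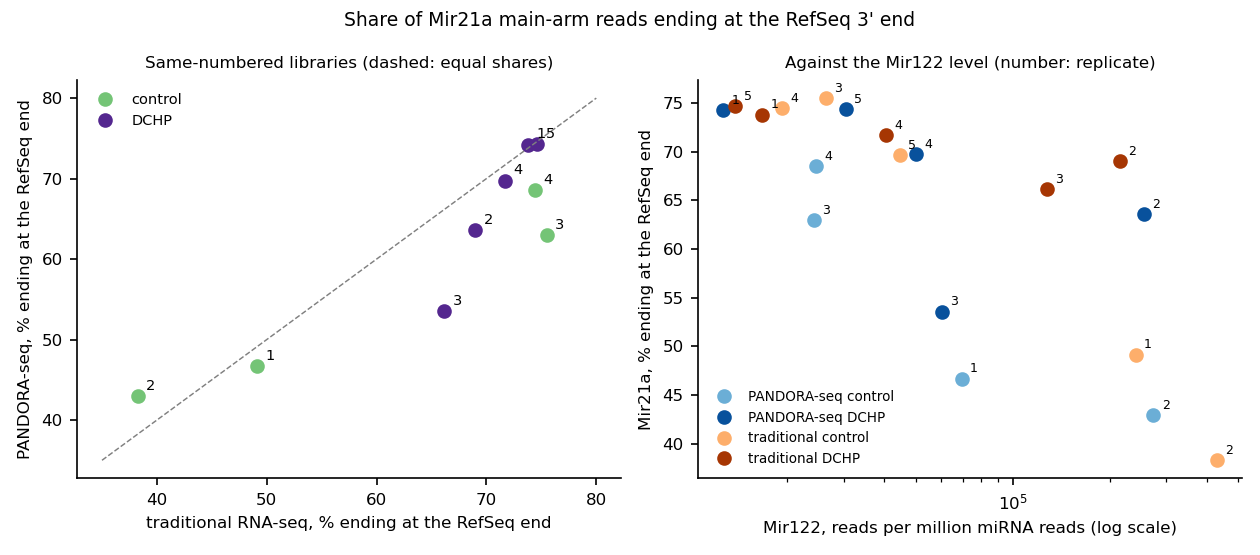
Left, share of Mir21a main-arm reads at the RefSeq 3′ end in same-numbered PANDORA-seq and traditional libraries (9 pairs, r = 0.899); right, the same share against the Mir122 level on a log axis in all 19 libraries. Control replicates 1 and 2 lie at the low end of the share in both panels.

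Profiles of starts and ends were compared library by library as the percentage of main-arm reads they shared. For Mir21a the median was 94.1% over 20 pairs of traditional libraries of the same exposure, 93.4% over 25 pairs of a control and a DCHP library, and 88.0% over 90 pairs of libraries of different methods. The lowest pairs were near 60% in each of these (60.9%, 62.4% and 60.1%). Within PANDORA-seq the Mir21a medians were 87.1% for 16 pairs of the same exposure and 84.9% for 20 pairs of a control and a DCHP library, so that pairs of different methods were no less alike at the median than pairs within PANDORA-seq. For Mir191 the traditional medians were 93.4% and 93.4%, with a lowest pair of 83.9%, and the 10 pairs of different methods lay below these, between 63.5% and 79.4% with a median of 72.0%. All 10 were pairs with PANDORA-seq DCHP replicate 5, the only PANDORA-seq library with enough Mir191 reads, so that they describe that library and not the method. Mir425, with fewer reads, had medians of 78.3% and 78.6%. The least alike traditional pair was thus closer for Mir191 than for Mir21a.

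In traditional RNA-seq, mismatched last bases were more frequent on Mir191 than on Mir21a. Reads whose only mismatch was the last base made up 4.93% ± 0.96 (SD, n = 5) of its main-arm reads in traditional controls and 3.90% ± 1.33 with DCHP, compared with 0.566% ± 0.18 and 0.511% ± 0.061 per other position. T was the most frequent of these last bases in 9 of the 10 libraries, in 2.87% ± 1.12 and 2.86% ± 1.01 of reads, whereas in control 2 it was C (1.83%, with T at 1.63%). For Mir21a the last-base share was 1.55% ± 0.37 and 1.41% ± 0.13, against 0.576% ± 0.21 and 0.504% ± 0.078 per other position, and in controls G (0.597%) and A (0.497%) were more frequent than T (0.150%). In PANDORA-seq it was 2.13% ± 1.095 (n = 4) and 1.82% ± 1.03 (n = 5) for Mir21a, and 1.09% ± 2.17 and 1.08% ± 2.42 for Mir191, where only control 2 (4.35% of 23 reads) and DCHP 4 (5.41% of 37 reads) had any. The DCHP difference was within the spread of the libraries for Mir191 (exact permutation p = 0.183, adjusted 0.851, with 0% of 318 hairpins called) and for Mir21a (exact permutation p = 0.437, adjusted 0.851).

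Read length separated Mir425 from the others. Of all its reads of 15 to 45 nt, 65.3% ± 13.3 were 20 to 24 nt long in traditional controls and 73.5% ± 7.46 with DCHP, compared with 97.2% ± 1.82 and 98.0% ± 0.68 for Mir21a and 90.9% ± 2.65 and 89.5% ± 3 for Mir191. In PANDORA-seq 30 of its 63 reads were 20 to 24 nt long, and 25 of these were among the 30 reads of DCHP replicate 5. Reads of 15 nt, the shortest deposited, made up 14.8% of the 2977 Mir425 reads in traditional RNA-seq and 28 of 63 in PANDORA-seq (44.4%). A read this short with 1 mismatch allowed can match by chance more easily than a longer one, but chance matches were not measured at any length. With reads of any length the Mir425 log2 fold change between methods was 0.91 in controls, opposite in sign to the value from 20 to 24 nt, and 1.63 with DCHP, where it was called (edgeR adjusted p = 0.00965). For Mir21a the share of 20 to 24 nt was 95.6% ± 2.29 (n = 4) and 97.4% ± 0.89 (n = 5) in PANDORA-seq, and neither method comparison was called (exact permutation p = 0.278 and 0.294, adjusted 0.317 and 0.363) where 83% of 106 and 75% of 120 hairpins were. Most of those hairpins did not hold mostly 20 to 24 nt reads.

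Between methods the 3′ ends and starts of Mir21a were not called either. The share at the main 3′ end differed by -6.12 percentage points in controls (exact permutation p = 0.548, adjusted 0.580) and -3.97 with DCHP (exact permutation p = 0.444, adjusted 0.489), where 83% and 79.2% of hairpins were called. The mean 3′ end position differed by 0.0340 and -0.00564 nt (exact permutation p = 0.857 and 0.873, adjusted 0.874 and 0.895, with 86.8% and 75.8% of hairpins called). The start share differed by -0.130 and -0.0651 percentage points (exact permutation p = 0.532 and 0.952, adjusted 1 and 0.952, with 30.2% and 75% of hairpins called), and by 0.0744 between DCHP and control in PANDORA-seq (exact permutation p = 0.841, adjusted 0.905, with 44.2% called). Mir191 and Mir425 had too few reads in PANDORA-seq for these tests, which required a mean of 100 main-arm reads per library.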

How the data were processed

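The authors deposited, for each library, a table of distinct read sequences of 15 to 45 nt with their raw read counts; per the labels the genome build is mm10, the study's methods name SPORTS for the analysis of the raw sequencing output (1 mismatch allowed), and the sources used here do not say which step made the deposited tables. Reads were matched to the sense strand of 2198 GENCODE M21 (GRCm38) miRNA hairpins (4 more, overlapping tRNA loci, were dropped), allowing 1 mismatch, and a read matching several hairpins counted on each. Counts of 20 to 24 nt were tested with edgeR 4.0.16 (quasi-likelihood, filterByExpr, library size the miRNA total) on all hairpins, with Benjamini-Hochberg adjustment, an adjusted p under 0.1 and a fold over 2. IsomiR shares were tested by two-sided exact permutation of the libraries, adjusted over the hairpins with a mean of 100 main-arm reads. The smallest p this allows is 0.00794, so that a single changed hairpin cannot pass after adjustment. Fold intervals are 95% t intervals. Simulated data were used to test the scripts. With 4-fold changes, the edgeR script recovered 95.9% (PANDORA-seq) and 96.9% (traditional) of changed hairpins in the DCHP comparisons. In the method comparisons it recovered only 43.3% (control) and 58.0% (DCHP). The simulated dispersion, the spread between libraries beyond counting error, was 0.2, under the fitted 0.26 to 0.34. Alternatives were total reads, any-length totals, a total without Mir122 (added after seeing the data), TMM, DESeq2 1.42.0, no filter, exact matches, best hairpins, any read length, hairpins with mostly 20 to 24 nt reads (added after seeing the data), a replicate block and leaving out each library.

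Replicate numbers were in the titles. Deviations of same-numbered DCHP libraries from their group means correlated across methods in 5 of 5 pairs (r 0.623 to 0.722), so the numbers were taken to pair them. In controls 3 of 4 pairs exceeded 0.1 (r 0.0078 to 0.82), which was not taken as pairing. No 2 replicates agreed within sampling noise (smallest chi-square per degree of freedom 19.1 over 36 pairs). The members, lists and rules were chosen with earlier results of these data known, and the relations across methods and with Mir122, and the values without 1 library for the members' spread, the Mir425 5p share and the PANDORA-seq ends, were added after seeing the data. Named were the 3 members, the 3 hairpins most correlated with each, the 3 highest of the widely expressed list, the most frequent isomiRs, and hairpins named because they passed. Intervals and limits for 0 reads (3 reads) cover counting error only, since reads carry no molecular identifiers.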

Additional observations from a re-analysis of the deposited data

Results flagged for a closer look

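A library was singled out where its gap to the nearest other library of its group, divided by the group's range, exceeded Dixon's 95% critical value. Over the 80 groups examined 12 values did so, in 8 libraries, as computed on rounded values. Chance alone gives about 1 in 20 groups. PANDORA-seq control replicate 2 held 40642 miRNA RPM of Mir21a, against 10178 to 11259 in the other controls. Traditional control replicate 2 held 15.6% of its reads in the miRNA total (others 3.96% to 6.9%), 9209 RPM of all reads for Mir21a (others 1047 to 1855) and 287.6 for Mir191 (others 40.9 to 74.03). DCHP replicate 5 had the Mir425 values that stood apart in both methods. In traditional RNA-seq it held 248.7 miRNA RPM of Mir425 (others 62.5 to 104.7) and 22.6 RPM of all reads (others 2.78 to 7.66), and 54.3% of its Mir425 main-arm reads ended 1 base beyond the RefSeq end (others 29.0% to 35.7%). In PANDORA-seq it held 0.567 RPM of all reads for Mir425 (others 0 to 0.0423). Its 530.6 miRNA RPM there was not singled out, and its miRNA total share of 0.107% was the highest of the PANDORA-seq libraries.

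Mir425 last-base mismatches reached 7.22% in traditional control replicate 5 and 0 in the other controls, on 97 main-arm reads. The Mir21a start share was 98.8% in PANDORA-seq DCHP replicate 3 (others 99.7% to 100%). Its share of 20 to 24 nt reads was 95.8% in PANDORA-seq DCHP replicate 2 (others 97.7% to 98.0%). Its 5p share was 99.99% in traditional DCHP replicate 3 (others 100% after rounding). That last value was flagged only through rounding, and it is not taken as standing apart. The 5p arm held 85527 of 85535 reads there and 63979 of 63982 in DCHP replicate 1.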

How the results depend on the processing

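The 20 to 24 nt hairpin counts set what can be seen: PANDORA-seq had 213 Mir191 and 30 Mir425 reads in all, so that Mir425 could not be tested there for DCHP, and its ends could not be tested between methods.

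Scaling moved the DCHP direction of Mir21a in traditional RNA-seq to -0.35 (total reads), -0.56 (TMM), -0.65 (DESeq2) and -0.24 (without Mir122), and that of Mir191 to -0.060, -0.30, -0.38 and -0.061. Between methods in controls, total reads, any-length hairpin reads and TMM gave -8.62, -5.58 and -7.36 for Mir21a, and DESeq2 gave -7.26 with no p-value. With DESeq2 added as the last value they gave -7.92, -5.09, -6.70 and -6.58 for Mir191 and -7.87, -5.60, -6.77 and -6.71 for Mir425. The Mir425 values rest on 2 PANDORA-seq control reads. With DCHP they gave -7.37, -4.73, -5.98 and -5.44 for Mir21a, -6.98, -4.32, -5.55 and -5.04 for Mir191 and -5.92, -3.15, -4.44 and -4.06 for Mir425, each called. The Mir425 values with DCHP rest on 28 PANDORA-seq reads, 25 of them in replicate 5, so their size is poorly measured and no conclusion is drawn from these calls. Reads of any length gave 0.91 and 1.63 for Mir425, and exact matches 0.12 for Mir191 with DCHP. The replicate block gave -1.27 for Mir21a in controls (called, edgeR adjusted p = 0.0137). Of the other member calls the block ended that of the Mir21a 5p share between methods with DCHP (exact sign-flip permutation, adjusted p = 0.231), which it could not have kept, and changed none besides. Mir21a and Mir425 had r = 0.656 and Mir191 and Mir425 r = 0.789 as RPM of all reads. The cause was not tested.

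The PANDORA-seq DCHP count of 1 became 0 with total reads, any-length totals, TMM, DESeq2, exact matches, best hairpins, reads of any length, mostly 20 to 24 nt hairpins and the replicate block, and 2 without a filter. The traditional DCHP count of 0 became 10 without a filter. The method counts of 507 and 450 became 796 and 797 without a filter, 958 and 821 with reads of any length, 56 and 22 over mostly 20 to 24 nt hairpins, and the latter 286 with exact matches. Scaling changed their split, to 20 higher and 447 lower with total reads in controls and 20 and 416 with DCHP.

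Leaving out 1 library gave 0 to 2 calls for DCHP in PANDORA-seq and 0 to 1 for the difference between methods (1 without PANDORA-seq control replicate 2). It gave -0.043 to 0.31 for Mir21a with DCHP in traditional RNA-seq and -1.75 to -0.71 for Mir21a between methods in controls. With DCHP it gave -0.18 to 0.14 for Mir191 and -1.07 to 0.999 for Mir425 between methods, the latter in only 5 of the 10 omissions, since Mir425 was not tested in the rest. For Mir425 in the difference it gave -0.16 to 2.06.

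Reads of 18 to 26 nt reversed 6 isomiR differences, of which only the Mir21a 5p share between methods with DCHP had been called: Mir21a start share for DCHP in PANDORA-seq (-0.274), Mir191 5p share (-0.0132), Mir425 last-base share (-0.633), Mir21a 5p share between methods (-0.785 and -0.302) and its mean end with DCHP (0.00784). Omitting 1 library reversed small differences. For DCHP in PANDORA-seq the Mir21a ranges were -0.0632 to 0.286 (start), -0.0136 to 0.181 (mean end) and -0.754 to 0.0829 (last base). In traditional RNA-seq they were -0.0797 to 0.0513 (Mir191 5p share), -0.0216 to 0.0340 (Mir21a start), -8.41 to 1.4 (Mir425 end share), -0.199 to 0.00252 (Mir425 mean end) and -0.538 to 1.68 (Mir425 last base). Between methods the Mir21a ranges were -0.267 to 0.00767 (start, controls), -0.0559 to 0.139 (mean end, controls), -0.149 to 0.146 (start, DCHP), -0.0320 to 0.0151 (mean end, DCHP) and -0.0198 to 0.671 (last base, DCHP).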
